A study of Drosophila melanogaster with 6 samples.

Results

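The cytochrome P450 genes of Drosophila melanogaster were examined in germline stem cells and in Kc cells. Members were chosen by symbol, as genes whose platform symbol is Cyp followed by a family number, a subfamily letter and a gene number, which leaves out the cyclophilin genes Cyp1 and Cyp40. This gave 81 genes of the 10844 measured, each represented by its brightest probe set, judged by mean log2 signal across the 6 arrays. The germline stem cells (GSC, 3 arrays) were purified from ovaries mutant for bam, a gene that germ cells need to leave the stem cell state. Kc (3 arrays) is an established Drosophila line of embryonic origin grown in culture. No allele, age, sorting step or driver is given in the labels, Kc is 1 line, and samples from Dpp-overexpressing ovaries were not analysed here. Higher and lower mean GSC relative to Kc.

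Cytochrome P450 enzymes are heme proteins that insert oxygen into small molecules. Insects use many of them, above all those of the CYP3 and CYP4 clans, against insecticides and plant compounds, and a few, mostly of the CYP2 and mitochondrial clans, to make and break down the moulting hormone ecdysone. Enzymes in the endoplasmic reticulum draw electrons from P450 reductase and cytochrome b5, and those in mitochondria from ferredoxins. In the ovary, ecdysone made by somatic cells acts on germline stem cells and later egg chambers.

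The values are the authors' signals on a linear scale, 1 per probe set and array, with no detection call. Tests used limma on log2(signal + 38), with the 25th percentile of the deposited values (38) as pseudocount. A called gene passed an adjusted p of 0.05 and changed at least 2-fold in signal + 38, a log2 fold of at least 1. Dim genes can therefore differ more than 2-fold in signal and still fall under this fold minimum. Signals of different probe sets do not rank RNA amounts between genes. For orientation, 8 control probe sets for mouse and yeast transcripts, which have no target in fly RNA, had a median signal of 22.8. Their highest signal was 76.6 on GSC arrays and 121.3 on Kc arrays. The value of 121.3, the highest over the 6 arrays, was used as the mark for both groups. Array medians lay between 148.5 and 176.5. The germline genes vas and nanos had mean signals of 6895 and 8938 in GSC against 18.5 and 29.7 in Kc, and the hemocyte gene Hml 11.1 against 11629. The mutated gene bam had 87, 33.8 and 29.2 in GSC against 885.0, 587.7 and 853.7 in Kc. For actin, signal at the 3' end divided by signal at the 5' end averaged 4.58 ± 0.313 in GSC against 1.85 ± 0.0789 in Kc (SD, n = 3 per group). The two-sided exact permutation p was 0.1, the lowest possible with 3 arrays per group. These ratios moved with the groups, as did hybridisation control signals of 2113 to 3753 in GSC against 3636 to 4302 in Kc. Their part in the results below was not tested.

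Most P450 genes had low signals in both kinds of cell. The mean signal stayed at or below the highest foreign control value in both groups for 50 of the 81 genes. It was above that value in both groups for 12 genes, in GSC only for 7 and in Kc only for 12. That value, 121.3, came from a Kc array, and the highest on GSC arrays was 76.6. More GSC means would pass that lower mark, so these counts and the shares below do not compare GSC with Kc. Among all genes measured, 59.1% had a GSC mean above it and 57.8% a Kc mean above it, whereas the shares were 23.5% and 29.6% of the P450 genes. The median over the P450 genes of the mean signal was 55.7 in GSC and 55.5 in Kc.

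**Figure D1:**
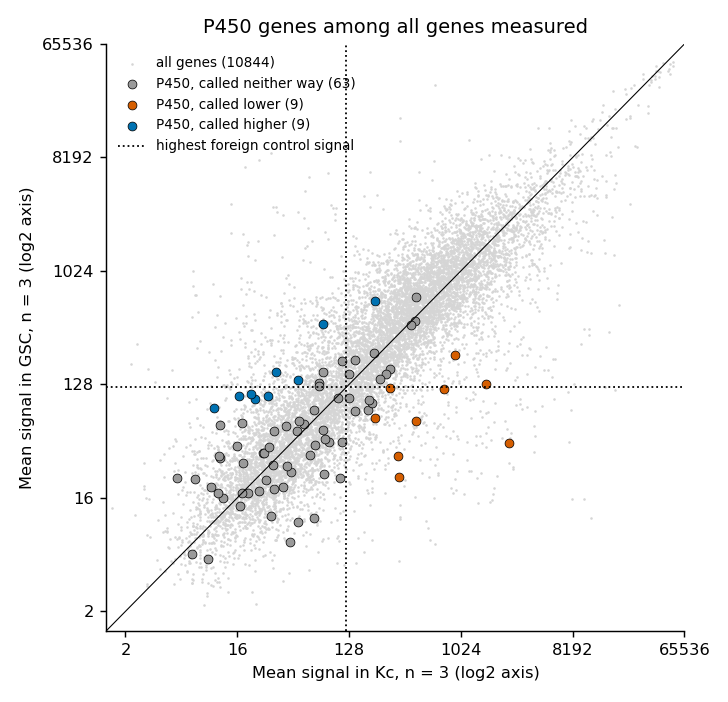
Mean signal in GSC (vertical, log2 axis) against mean signal in Kc (horizontal, log2 axis), n = 3 arrays each, for all 10844 genes (light points) and the 81 P450 genes (outlined points, coloured by call). Dotted lines mark the highest foreign control signal, 121.3, and 50 P450 genes lie in the lower left field at or under both lines. The value comes from a Kc array, and the highest foreign control signal on GSC arrays was 76.6.

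Of the 81 genes, 9 were called higher and 9 lower in GSC, and 63 passed neither way. That is 11.1% in each direction, against 12.5% called higher and 8.02% called lower among all genes measured. The share called either way, 22.2%, was near the background of 20.5% of genes (19.8% of all probe sets). The median log2 fold was -0.04, beside 0.04 over all genes. The GSC arrays all lay above the Kc arrays for 16 P450 genes, 19.8% against a background of 27.5%, and all below for 20, 24.7% against 19.5%. When the arrays were scaled to their hybridisation controls, which raised the median over all probe sets from 0.025 to 0.318 on the log2 scale, the calls were 13 higher and 7 lower, a share of 65% higher in place of 50%. Over all probe sets that share went from 59.1% to 80.4%. With the pseudocount at the median of all values, 2 were higher and 7 lower, and 956 of all probe sets were higher and 734 lower, against 1633 and 1132. At that pseudocount, 162, a gene whose brighter group has a mean under 162 cannot reach the fold minimum, whatever its other group.

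All 9 lower genes had a Kc mean signal above the highest foreign control value. Of the 9 higher genes, 4 had a GSC mean above it and 5 did not. That value came from a Kc array, however. The lowest GSC mean of the 9 higher genes, 83.1, was above the highest foreign control signal on GSC arrays, 76.6. Of the lower genes, 7 kept their call under all 16 processing alternatives, and of the higher genes 2 did, Cyp4d2 and Cyp4p2. The alternative with the pseudocount at the median (162) removes any call whose brighter group has a mean under 162. All higher genes but Cyp4d2 and Cyp4p2 had such GSC means (at most 159.7), while Kc means of the lower genes began at 206.1. The counts of 7 and 2 therefore depend on brightness and do not rank how firm the calls are. Cyp4p1, Cyp4d14 and Cyp6g1 lost their call in that setting alone.

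**Figure D2:**
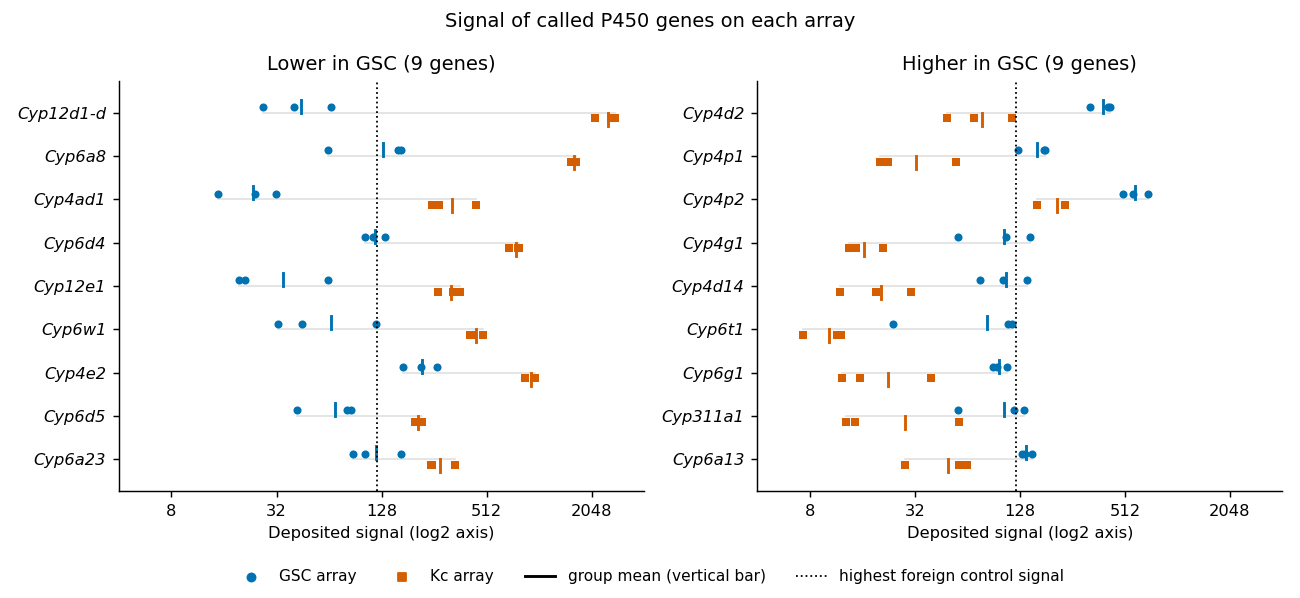
Deposited signal (log2 axis) of the 18 called P450 genes on each GSC array (circles) and Kc array (squares), with vertical bars at the group means and a dotted line at the highest foreign control signal, 121.3. The Kc arrays of all 9 genes on the left lie above the line, and 5 of the 9 genes on the right have a GSC mean below it. The line comes from a Kc array, and the highest foreign control signal on GSC arrays was 76.6.

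Cyp12d1-d and Cyp6a8 had the lowest log2 folds of the 81 genes. Cyp12d1-d, a mitochondrial P450 known for its induction by foreign compounds and for its link to DDT resistance, had signals of 26.7, 40.2 and 65.3 in GSC 1 to 3 and of 2135, 2650 and 2788 in Kc 1 to 3. All Kc arrays were far above all GSC arrays, whose signals were within the range of the foreign controls. The log2 fold was -4.98 ± 0.205 (SE, adjusted p = 1.61e-07). Its near-identical neighbour Cyp12d1-p shares sequence with it, so the pair cannot be told apart with certainty. A single probe set that lists both symbols was left out by the rule.

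Cyp6a8, an inducible enzyme that responds to caffeine and barbiturates, had signals of 165.7, 160.0 and 63.4 in GSC and of 1553, 1659 and 1650 in Kc. The groups were well apart, with GSC 3 the lowest array, and the log2 fold was -3.37 ± 0.254 (adjusted p = 6.65e-06). Cyp6w1, another gene named in studies of DDT resistance, had 32.5, 44.7 and 118.8 in GSC against 490.8, 425.0 and 413.2 in Kc. Its highest GSC array, GSC 3, was still below every Kc array (log2 fold -2.31 ± 0.312, adjusted p = 0.000294).

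Both of the called Cyp6d genes were lower. Cyp6d4 had 134.6, 103.1 and 113.7 on GSC arrays against 782.1, 690.0 and 779.4 in Kc (log2 fold -2.35 ± 0.174, adjusted p = 5.24e-06), with little spread within either group. Cyp6d5 had 42.2, 80.6 and 85 against 199.4, 218.5 and 200.3, a smaller difference between groups that did not overlap (log2 fold -1.21, adjusted p = 0.00616). Its call ended under a pseudocount at the median (-0.68) and under hybridisation control scaling (-0.89). The other member of the subfamily, Cyp6d2, known for the sensitivity of its mutants to camptothecin, had 79.8 ± 2.44 in GSC and 183.2 ± 23.7 in Kc, and at a log2 fold of -0.90 (adjusted p = 0.0171) was below the fold minimum.

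In the Cyp4 family the lower genes were Cyp4ad1 and Cyp4e2, which are neighbours on the chromosome. Cyp4ad1 had 31.7, 14.7 and 24.2 on the GSC arrays against 250.4, 274.4 and 443.6 (log2 fold -2.52 ± 0.3, adjusted p = 0.000116). The GSC signals were within the range of the foreign controls. Cyp4e2 had 169.0, 266.6 and 216.7 in GSC against 965.0, 849.1 and 953.5 in Kc (log2 fold -1.93 ± 0.176, adjusted p = 2.25e-05), so it was above every foreign control signal in both groups. The mitochondrial gene Cyp12e1 had 21.2, 63.3 and 19.5 against 359.9, 271.2 and 330.4, again with no overlap (log2 fold -2.35 ± 0.304, adjusted p = 0.000215). Cyp6a23 closed the list at 166.4, 102.5 and 88.2 against 336.6, 244.2 and 248.9. Its log2 fold of -1.02 (adjusted p = 0.0124) lay at the fold minimum, and the call ended without GSC 2, GSC 3 or Kc 1, under hybridisation control scaling (-0.63) and under a pseudocount at the median (-0.65).

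Of the 9 genes higher in GSC, 5 belong to the Cyp4 family. Their order by fold depends on the pseudocount, and with a pseudocount of 1 the largest was Cyp6t1 (2.63) and not Cyp4d2 (2.36). Cyp4d2 had signals of 321.3, 418.2 and 412.5 in GSC and of 115.6, 48.8 and 69.8 in Kc. Every GSC array was more than 2-fold above every Kc array, and the log2 fold was 1.89 ± 0.268 (adjusted p = 0.000386). Cyp4p2 had 501.2, 691.9 and 568.8 against 233.9, 160.0 and 230.9 (log2 fold 1.35 ± 0.199, adjusted p = 0.000496) and was the only higher gene with a Kc mean above the highest foreign control signal. Its neighbour Cyp4p1 had 176.5, 178.1 and 124.4 against 22.5, 55.2 and 20.2 (log2 fold 1.51 ± 0.314, adjusted p = 0.00392). The Kc signals of Cyp4p1 lay within the range of the foreign controls, and its call ended with the pseudocount at the median (0.72).

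Cyp4g1, the oxidative decarbonylase that makes cuticular hydrocarbons in oenocytes, had 56.9, 147.2 and 107.0 in GSC and 21.1, 14.7 and 13.5 in Kc. The groups did not overlap (log2 fold 1.33 ± 0.316, adjusted p = 0.00839). GSC 1 was within the range of the foreign controls on GSC arrays (up to 76.6), and GSC 3 was under their Kc maximum of 121.3. The call ended with a floor in place of the pseudocount (adjusted p = 0.0644) and with the pseudocount at the median (0.56). Cyp4d14 had 103.2, 141.6 and 75.9 against 12, 30.6 and 19.1 (log2 fold 1.29, adjusted p = 0.0074). Of the 16 alternatives, the pseudocount at the median alone removed that call (0.55).

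Cyp6g1, the gene whose overexpression gives DDT and neonicotinoid resistance in field strains, had 95, 89.8 and 107.5 in GSC against 39.5, 12.2 and 15.6 in Kc. Its GSC signals were close together and above every Kc array (log2 fold 1.19 ± 0.291, adjusted p = 0.00975). They lay above every foreign control signal on GSC arrays (76.6 at most), yet under the 121.3 reached on a Kc array. The call ended with the pseudocount at the median (0.49). Cyp6a13 had 131.4, 137.6 and 150.4 against 63.6, 57.7 and 28.3 (log2 fold 1.04, adjusted p = 0.0196), near the fold minimum. Its call ended with quantile normalization (0.97), scaling to the median (0.96) and the pseudocount at the median (0.51).

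The remaining higher calls were lost when single arrays were left out. Cyp6t1 had 115.8, 109.6 and 24 in GSC against 11.4, 7.3 and 12.1 in Kc, so that GSC 3 was close to the Kc values (log2 fold 1.22 ± 0.358, adjusted p = 0.025). Cyp311a1 had 118.9, 135.8 and 56.3 against 57.2, 12.9 and 14.6, and was the 1 called gene whose groups overlapped (log2 fold 1.11 ± 0.37, adjusted p = 0.0429). Calls ended for Cyp6t1 without any 1 of the arrays GSC 1, GSC 2, Kc 1, Kc 2 or Kc 3, for Cyp311a1 without GSC 1, GSC 2, Kc 2 or Kc 3, and for Cyp6a13 without GSC 2, GSC 3 or Kc 3. The highest adjusted p over the alternatives was 0.219, 0.136 and 0.0691 for these genes in turn. The calls of Cyp6t1 and Cyp311a1 also ended with a floor in place of the pseudocount and with the pseudocount at the median. That of Cyp311a1 ended with scaling to the median as well.

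By family, the Cyp4 and Cyp6 families together held 45 genes and 15 of the 18 calls, a share of 33.3% beside the background of 20.5%. The Cyp12 family had the same share, with 2 of 6. In the Cyp6 family of 23 genes, which includes many insecticide-associated enzymes, 3 were higher, 5 lower and 15 neither, with a median log2 fold of -0.58. In the Cyp4 family of 22 genes, 5 were higher, 2 lower and 15 neither, with a median of 0.14. The Cyp6 median was below 0 and the Cyp4 median was not below 0 under all 16 alternatives, with ranges of -0.69 to -0.20 and 0.00 to 0.95. The Cyp4 value of 0.95 came with dim probe sets left out. With hybridisation control scaling the Cyp6 calls turned to 6 higher and 3 lower, while the Cyp4 calls stayed at 5 and 2. Whether the families differ was not tested, since they were compared with their results known.

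**Figure D3:**
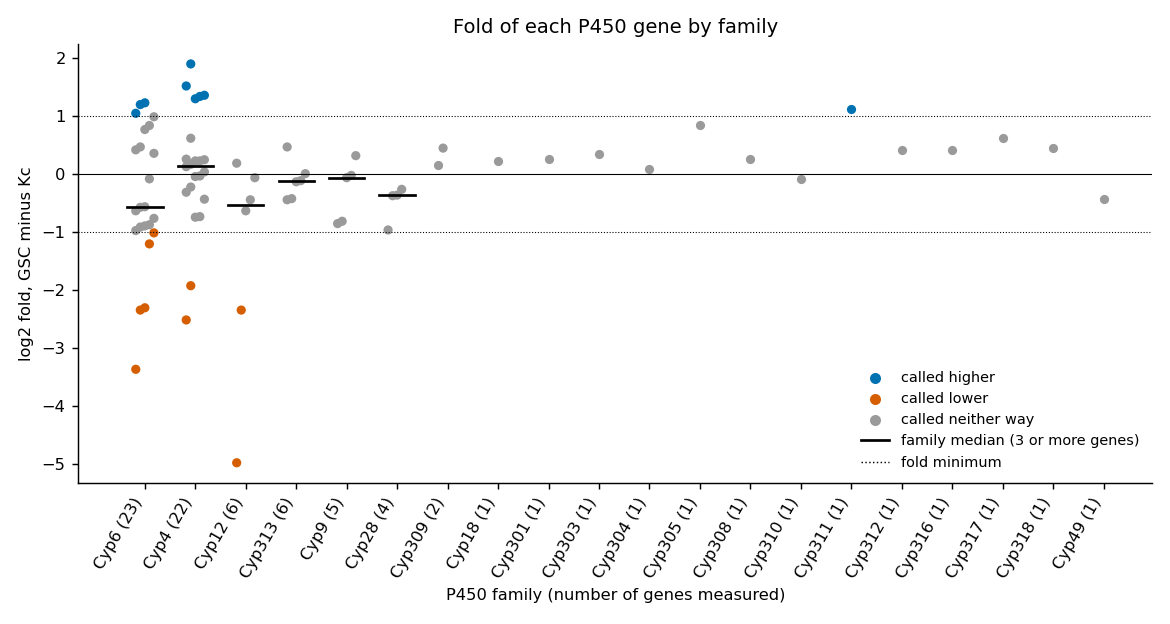
Log2 fold (GSC minus Kc) of each of the 81 P450 genes, arranged by family with the number of genes in parentheses. Colours give the call, black bars the median of families with 3 or more genes, and dotted lines the fold minimum. The Cyp6 and Cyp4 columns hold 15 of the 18 coloured points, and the lowest point, Cyp12d1-d at -4.98, is in the Cyp12 family.

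The mitochondrial Cyp12 family had 6 genes, of which Cyp12d1-d and Cyp12e1 were lower, 0 higher and 4 neither (median -0.54). The neighbours Cyp12a4, tied to lufenuron resistance, and Cyp12a5 were both uncalled. Cyp12a4 averaged 169.9 ± 61.7 on GSC arrays and 275.5 ± 23.1 on Kc arrays (log2 fold -0.64, adjusted p = 0.096), and Cyp12a5 had 13.8 ± 2.51 and 16.7 ± 6.65, both within the range of the foreign controls. Cyp12b2 was measured at 228.9 ± 16.9 and 202.3 ± 56 (log2 fold 0.18, adjusted p = 0.637), above the foreign controls in both groups with no difference beyond the spread between arrays.

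No gene was called among the 15 of the Cyp313, Cyp9 and Cyp28 families, where 2 had an unadjusted p under 0.05 in the limma test. The 6 Cyp313 genes had group means of 5.2 to 81.4, all under the highest foreign control signal, and the highest of them was Cyp313a1. In the Cyp9 family Cyp9f2 was bright on every array, with 378.1, 385.8 and 380.3 in GSC and 349.1, 492.8 and 373.3 in Kc, and a log2 fold of -0.07 ± 0.172 (adjusted p = 0.825). A second Cyp9f2 probe set gave -0.19 (adjusted p = 0.582). Cyp9b2 had 90.4 ± 5.11 against 195.8 ± 69 (log2 fold -0.82, adjusted p = 0.055) and -0.67 (adjusted p = 0.138) with its other probe set. Of the Cyp28 genes, Cyp28c1 had the highest mean signal (99 ± 14.1 and 127.9 ± 22.6), and Cyp28d1, linked to nicotine tolerance, had 11.2, 10.3 and 11.6 in GSC against 95, 14.1 and 90.6 in Kc. The Kc arrays of Cyp28d1 disagreed, with Kc 2 near the GSC values (log2 fold -0.97, adjusted p = 0.0608), and the gene was called lower without Kc 2.

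The other 15 genes belong to 14 families with 1 or 2 genes each. Only Cyp311a1 was called among them, beside a background of 20.5% of genes, and 13 of the 15 had a log2 fold above 0. The share of all genes above 0 was not counted, and the median over all genes was 0.04. These 15 genes were grouped by family size alone, so no lean towards GSC is read from the count. By clan, 3 genes were higher and 5 lower of 37 in the CYP3 clan, 6 and 2 of 32 in the CYP4 clan, 0 and 2 of 8 in the mitochondrial clan, and 0 and 0 of 4 in the CYP2 clan. The shares called, 21.6% in the CYP3 clan and 25% in the CYP4 clan, were near the background of 20.5%. In the CYP2 clan 0 genes had an unadjusted p under 0.05. Cyp305a1 had the highest signals of these 4, at 140.6, 215.4 and 229.1 in GSC and 20.3, 206.1 and 112.3 in Kc, with the low array Kc 1 setting the difference (log2 fold 0.83 ± 0.474, adjusted p = 0.227).

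Besides the called genes, 4 had an adjusted p under 0.05 with a fold under the minimum, and all belong to the Cyp6 family. Next to Cyp6d2 these were Cyp6u1, Cyp6a14 and Cyp6a17. Cyp6u1 had the highest mean signal of the P450 probe sets in GSC, with 623.0, 710.1 and 562.5 against 435.2, 433.9 and 475.0 in Kc (log2 fold 0.46 ± 0.146, adjusted p = 0.0345). Cyp6a17, known for its role in temperature preference, had 74.8, 68.3 and 38.2 against 6.9, 22.1 and 6.2 (log2 fold 0.98, adjusted p = 0.0133), and Cyp6a14 had 63.1 ± 28.3 against 17.4 ± 4.45 (0.83, adjusted p = 0.0458). Both sat under the foreign control maximum in both groups. Cyp6a16 was bright in both groups, at 406.5 ± 123.5 and 434.9 ± 140.5 (log2 fold -0.09, adjusted p = 0.846).

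A single array carried some of the larger uncalled differences. Cyp6a2, which metabolises DDT, had 20.1, 16.6 and 33 in GSC, and in Kc 239.6 on Kc 1 but 34.7 and 47.9 on the others. Its log2 fold of -0.98 ± 0.477 was not called (adjusted p = 0.154). Cyp9c1 had 23.8, 26.7 and 186.6 in GSC against 198.8, 149.8 and 81.8 in Kc, so GSC 3 lay among the Kc values (-0.86, adjusted p = 0.249). Without GSC 3 it was called lower.

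P450 genes often sit side by side, as products of local duplication. In the order of protein-coding genes of the RefSeq annotation, 43 of the 81 genes lay in runs of adjacent P450 genes with 0 other protein-coding genes between them. Of 27 adjacent measured pairs, 3 had both genes called the same way, 10 had 1 called, 14 had neither called and 0 were called in opposite directions. No such counts were made for neighbouring genes in general, so these do not show whether P450 neighbours go together. The pairs called alike were Cyp4ad1 with Cyp4e2, both lower, and Cyp4d14 with Cyp4d2 and Cyp4p2 with Cyp4p1, both higher. The gene next to each of these pairs was not called: Cyp4e1 had a log2 fold of 0.03, Cyp4ae1 of -0.74 and Cyp4p3 of -0.75. How far the probe sets of such close relatives tell them apart was not tested.

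The longest run holds 9 genes, from Cyp6a22 to Cyp317a1, and all 9 were measured. Only Cyp6a8 and Cyp6a23 were called there, both lower. Cyp6a17 (0.98), which lies beside Cyp6a23 (-1.02), went the other way without reaching the fold minimum, and the neighbours of Cyp6a8, Cyp6a21 (-0.92, adjusted p = 0.101) and Cyp317a1 (0.62, adjusted p = 0.237), were not called. Cyp6a20, a gene known from work on male aggression, averaged 95.5 ± 31.6 on GSC arrays and 185.0 ± 17 on Kc arrays (log2 fold -0.77, adjusted p = 0.0559). Cyp6g1 has the neighbours Cyp6g2 (0.41) and Cyp6t3 (-0.57), neither of which was called.

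**Figure D4:**
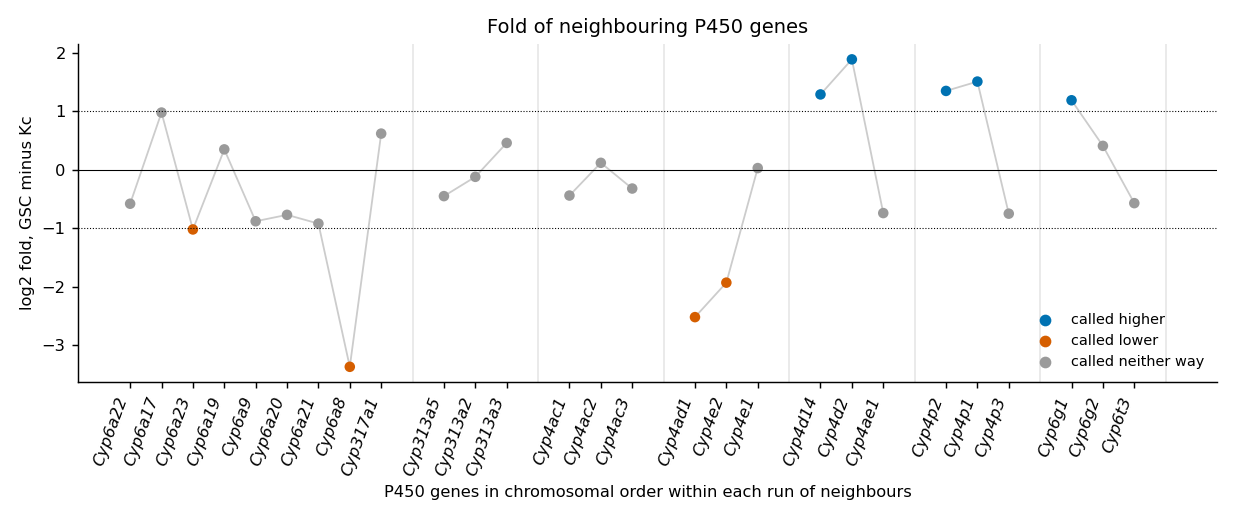
Log2 fold (GSC minus Kc) of P450 genes in chromosomal order, for the runs of adjacent P450 genes with 3 or more measured members. Colours give the call and grey lines join neighbours. The 9 genes from Cyp6a22 to Cyp317a1 range from -3.37 at Cyp6a8 to 0.98 at Cyp6a17.

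None of the P450 enzymes of hormone synthesis or inactivation was called. Several of the P450 enzymes that make ecdysone carry their own names on the platform (phtm, dib, sad, shd and spo) and so are not among the 81, and they were read from the same fit. Phantom (phtm), a hydroxylase of the ecdysone pathway, had 301.4, 372.8 and 344.5 in GSC and 342.3, 326.9 and 316.4 in Kc (log2 fold 0.04 ± 0.165, adjusted p = 0.896). Shadow (sad), a mitochondrial hydroxylase of the same pathway, had 331.1 ± 55.3 and 338.0 ± 102.1 (log2 fold -0.00 ± 0.225, adjusted p = 0.993). Both were above the foreign controls on every array, and their groups overlapped.

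The other synthesis enzymes were dim. Shade (shd), which turns ecdysone into its active form, averaged 77.7 ± 5.7 on GSC arrays and 87.6 ± 14.7 on Kc arrays (log2 fold -0.11, adjusted p = 0.807). Disembodied (dib) had 18.2 ± 2.53 and 31.5 ± 27.2, and spook (spo) 9.8 ± 7.01 and 12.6 ± 8.78. The means of shd, dib and spo were under the highest foreign control signal, 121.3, in both groups, and their groups overlapped. The GSC mean of shd was just above the highest foreign control signal on GSC arrays, 76.6. Cyp18a1, which inactivates ecdysteroids, had 7.2, 37.3 and 65.3 against 12.5, 12.4 and 51.9, with a wide spread in both groups (log2 fold 0.21 ± 0.348, adjusted p = 0.718). Cyp6t3, reported to act in the ecdysone-producing gland, had 98.3, 138.9 and 183.2 against 270.1, 254.1 and 154.2 (log2 fold -0.57 ± 0.283, adjusted p = 0.167). Cyp6g2, an enzyme of juvenile hormone synthesis, had 184.8, 187.6 and 231.7 against 132.4, 140.5 and 153.4, with the groups apart but no call (log2 fold 0.41 ± 0.221, adjusted p = 0.204).

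Of 14 measured genes of ecdysteroid synthesis and inactivation, 3 were higher, 0 lower and 11 neither, with a median log2 fold of 0.02 beside 0.04 over all genes. The background for this list and for the pathway and marker lists below is 12.5% of all genes higher and 8.02% lower (20.5% either way). The list counts are small and were not tested against it. None of the 3 is a P450. They were mld, a zinc finger gene needed for ecdysone synthesis (657.4 ± 51.9 against 130.8 ± 51.1, log2 fold 2.08, adjusted p = 7.27e-05), the sterol transport gene Start1 (log2 fold 1.10, adjusted p = 0.000362) and the sterol trafficking gene Npc1a (log2 fold 1.04, adjusted p = 0.000778). The calls of Start1 and Npc1a ended with quantile normalization, with scaling to the median and with the pseudocount at the median, where the log2 folds were 0.91 and 0.82. The Npc1a call also ended without GSC 1 or GSC 2.

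Of 6 measured genes of juvenile hormone synthesis and turnover, Jheh2 and Hmgs were lower, 0 were higher and 4 neither (median -0.44). Jheh2, an epoxide hydrolase that breaks down juvenile hormone and other epoxides, averaged 901.8 ± 59.9 on GSC arrays and 5120 ± 171.6 on Kc arrays (log2 fold -2.46, adjusted p = 1.49e-07). Hmgs, an enzyme of the mevalonate pathway, had a log2 fold of -1.03 (adjusted p = 3.46e-05), a call lost under the mean over its probe sets (-0.68), hybridisation control scaling (-0.58) and a pseudocount at the median (-0.95).

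**Figure D5:**
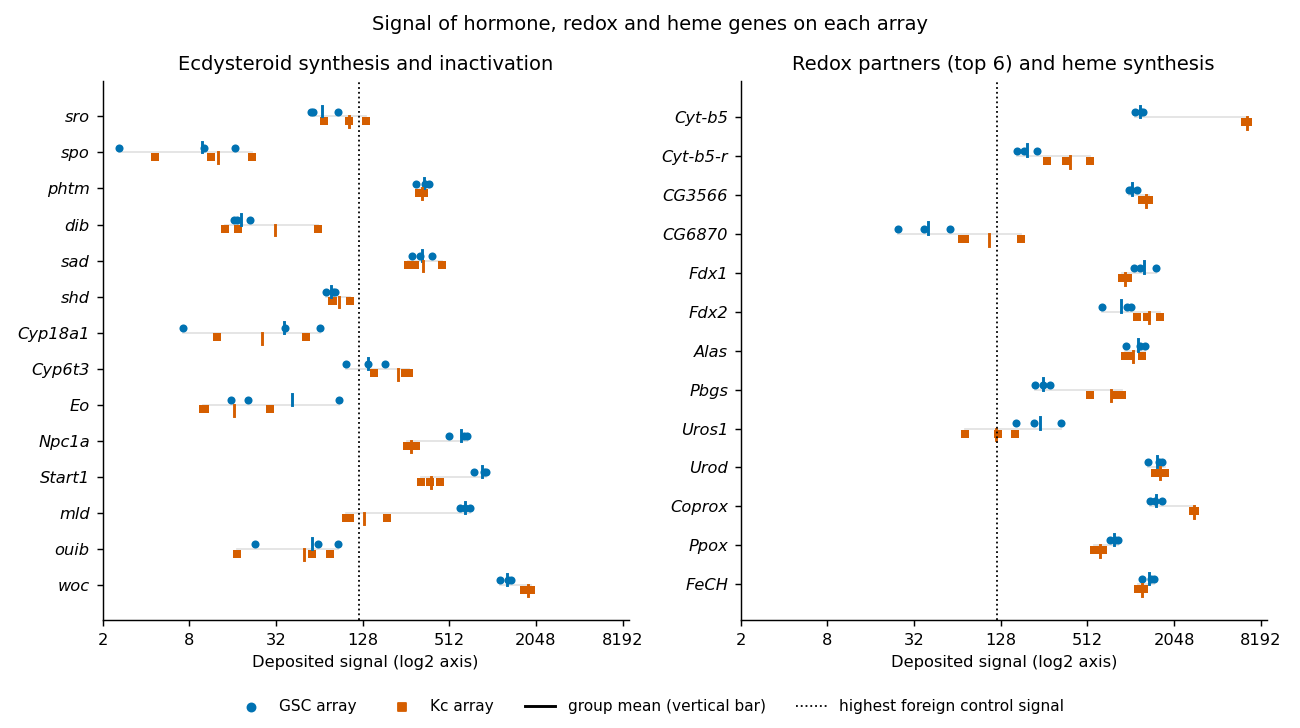
Deposited signal (log2 axis) on each GSC array (circles) and Kc array (squares), with bars at group means. The left panel shows 14 genes of ecdysteroid synthesis and inactivation, the right panel 6 genes listed as redox partners and 7 heme synthesis genes. The groups of phtm, dib, sad, shd and spo overlap, while Cyt-b5 lies at 1177 in GSC and 6543 in Kc.

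Of 6 measured genes listed as redox partners of the P450 enzymes, 1 was called lower and 0 higher. Besides Cyt-b5 and the ferredoxin genes Fdx1 and Fdx2, the list held Cyt-b5-r, CG3566 and CG6870. Whether these last genes supply P450 enzymes with electrons was not tested. Cyt-b5, which passes electrons to P450 enzymes of the endoplasmic reticulum, had 1237, 1097 and 1195 in GSC and 6591, 6664 and 6374 in Kc. The groups were tightly separated, with a log2 fold of -2.44 ± 0.0961 (adjusted p = 1.15e-07), and the call was kept under all 16 alternatives. The mitochondrial ferredoxin genes were not called and had opposite signs, Fdx1 at 1267 ± 244.1 against 927.2 ± 47.7 (log2 fold 0.42, adjusted p = 0.0535) and Fdx2 at 874.8 ± 205.0 against 1359 ± 251.9 (log2 fold -0.62, adjusted p = 0.0332, below the fold minimum). The median over the 6 was -0.73. The reductase genes Cpr and dare were not analysed here.

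Heme synthesis, which supplies the P450 cofactor, had 1 of 7 genes lower and 0 higher (median 0.10). Pbgs, which makes porphobilinogen, had 250.8, 222.6 and 279.1 in GSC against 529.4, 807.5 and 882.3 on Kc arrays (log2 fold -1.40 ± 0.205, adjusted p = 0.000475). The call ended with hybridisation control scaling (-0.99). Coprox also had groups that did not overlap, 1524 ± 151.2 against 2822 ± 38.5. Its log2 fold of -0.88 (adjusted p = 0.000145) was below the fold minimum. Alas, the entry enzyme of the pathway, had 1141 ± 180.6 and 1058 ± 146.8, with a log2 fold of 0.10 ± 0.155 (adjusted p = 0.685).

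Regulators of the xenobiotic response gave 1 higher, 1 lower and 7 neither of 9 (median 0.14). The small Maf gene maf-S, partner of the stress factor cnc, had 2012, 2144 and 2126 in GSC against 750.0, 669.5 and 626.4 on Kc arrays (log2 fold 1.57 ± 0.116, adjusted p = 5.32e-06). The juvenile hormone receptor gene gce was lower (log2 fold -1.49, adjusted p = 0.00189), but its other probe set had -0.14 (adjusted p = 0.818), and the call ended with the mean over both (-0.81). Of 4 probe sets of cnc, the brightest had 0.78 (adjusted p = 0.00344) and another -0.95 (adjusted p = 0.00221), so the sign depends on the probe set. The nuclear receptor gene Hr96 had 219.5 ± 50.3 and 195.8 ± 48.7 (adjusted p = 0.735).

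Markers of other cells were set beside the P450 calls. Of 11 eggshell and yolk genes 6 were higher and 0 lower, and their summed signal was 4614 to 5153 on the GSC arrays and 1311 to 1749 on the Kc arrays. For 12 genes of ovarian somatic cells, 1 higher and 1 lower, the sum was 891.3 to 1078 in GSC and 3440 to 4016 in Kc. Without the brightest gene, zfh1, which was the lower one, the other 11 summed to 698.4 to 803.6 and 520.4 to 808.1. The follicle and niche gene tj was at 18.9 to 27.2 in GSC and 30.2 to 41.4 in Kc. The higher gene was peb, with 164.6, 149.9 and 87.9 in GSC against 20.4, 11.9 and 10.5 in Kc (log2 fold 1.69, adjusted p = 0.00156). Its call ended with the pseudocount at the median (0.74). The sums for 6 fat body genes, 1 higher and 1 lower, were 950.7 to 1112 and 1613 to 1816, and without Lsd-2 they were 618.6 to 671.0 in GSC and 469.8 to 509.0 in Kc, the other way round. For 9 genes of gut and Malpighian tubule, where many P450 genes are known to be expressed, 0 were higher and 1 was lower, with sums of 4474 to 5339 and 9458 to 10837. Most of that sum was Vha16-1, whose call ended with quantile normalization, hybridisation control scaling and the mean over probe sets. The other 8 summed to 563.3 to 905.3 in GSC and 583.0 to 822.7 in Kc. Of 13 germline genes 9 were higher and 1 lower (39124 to 42956 against 4069 to 4202), and of 13 hemocyte genes 2 were higher and 5 lower (1758 to 1893 against 25138 to 26842). The part of other cells in the P450 calls was not tested. In bulk samples, fewer cells of a type and less RNA per cell cannot be told apart.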

How the data were processed

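Total RNA of 6 samples was labelled with an Enzo kit and read on arrays with 1 colour. The values deposited by the authors are linear probe set intensities. The submitters' processing notes name MAS5. Its version was not given in the sources used here, nor were its settings. A trimmed mean (2% off either end) came to 500.1 on each of the 6 arrays, so no second normalization was applied. The table held 14010 probe sets, 44 of them array controls, which left 13966 to test. Platform annotation gave 1 symbol for 12443, several for 327 and none for 1196. All 81 P450 genes matched RefSeq (assembly Release 6 plus ISO1 MT) by identifier, with the same symbol, and 4 had 2 probe sets. The files name no genome build, so that table was used only for names and for gene order.

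GSC and Kc were compared with limma 3.58.1 under R 4.3.3 (lmFit, then eBayes, two-sided) with an intensity trend and robust variances, and p-values were adjusted by Benjamini-Hochberg over all 13966 probe sets. Whether the replicates are separate cultures or dissections is not stated in the labels. The p-values therefore reflect spread between these samples alone, possibly technical. Named genes were the called members, the hormone enzymes, the brightest members overall and by family, members with several probe sets, and called genes of the pathway lists. Cyp6d2, Cyp6a14, Cyp6a17, Cyp28d1, Cyp6a2, Cyp9c1, Cyp305a1, Cyp12a4, Cyp12a5, Cyp12b2, peb, some neighbours and uncalled list genes were added after their values were seen. Fer1 was dropped from the redox list because that symbol is a transcription factor gene. Members and lists were chosen with earlier results of these data known. The foreign control comparison and the marker sums without their brightest gene were chosen after seeing the data. The fit was tested on simulated data. Alternatives covered the pseudocount, a floor, quantile, median and hybridisation control scaling, the variance prior, removal of dim probe sets, a replicate block, leaving out each array, and the mean over probe sets.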

Additional observations from a re-analysis of the deposited data

How the results depend on the processing

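With the pseudocount at the median of all values (162), calls fell from 2765 to 1690 probe sets and from 9 to 2 higher P450 genes, with 7 lower. Genes with a mean under 162 in their brighter group cannot reach the fold minimum there, and this holds for every higher P450 gene that lost its call. Hybridisation control scaling moved the median log2 fold of the P450 genes from -0.04 to 0.17. In all other settings the counts of P450 genes stayed within 1.5 times of 9 in each direction. Leaving out 1 array gave 6 to 10 higher and 8 to 11 lower P450 genes, medians of -0.09 to 0.03, and 2657 to 2757 called probe sets. Deviations of same-numbered arrays correlated at -0.03, 0.036 and -0.007, so the numbers were not taken as a pairing. The fit with the replicate number as a block gave 9 higher and 9 lower P450 genes and 2739 called probe sets, and changed no P450 call. Over the single P450 genes, 32 results lost a call, 17 gained one, 1219 kept their side of the threshold and 0 called results changed direction. Signals near those of the foreign controls limit what the dimmer genes can show, and 53 of the 81 genes passed the filter on dim probe sets. The number of arrays limits the precision.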
